A study of Mus musculus with 6 samples.

Results

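The genes described here are 9 that make or remove superoxide: 5 components of the phagocyte NADPH oxidase (Cybb, Cyba, Ncf1, Ncf4 and Rac2) and 4 enzymes that remove superoxide or hydrogen peroxide (Sod1, Sod2, Cat and Gpx1). They were chosen by name, all 9 were found among the 23398 genes of the deposited table, and all 9 were among the 10682 genes tested. Dendritic cells grown from mouse bone marrow received vehicle (3 libraries) or Ca(OH)2 nanoparticles (3 libraries) for 12 hours before RNA sequencing, and the labels give no strain, age, particle dose or vehicle composition. The labels do not say whether the 3 libraries of a group came from separate cultures or animals, so p-values measure the spread between these libraries, which may be technical.

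The phagocyte NADPH oxidase moves electrons from NADPH across a membrane onto oxygen and so produces superoxide in the phagosome or outside the cell. Cybb (NOX2, the catalytic subunit) and Cyba form the membrane flavocytochrome, Ncf1 is the cytosolic organizer, Ncf4 is a cytosolic subunit that binds a phosphoinositide of phagosomes, and Rac2 is the small GTPase that joins the active complex. Superoxide dismutases turn superoxide into hydrogen peroxide, Sod1 mainly in the cytosol and Sod2 in the mitochondrial matrix, and catalase (Cat, peroxisomal) and glutathione peroxidase 1 (Gpx1, a selenoprotein) remove the peroxide. In dendritic cells the oxidase is known to limit acidification and proteolysis in phagosomes, which affects how antigen is kept for presentation.

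The upstream sequences of Cybb, Ncf1 and Sod2 are shown because these genes rose with nanoparticles and held an interferon or NF-kappaB motif. They were picked after the matches and the changes were seen. Each is the 250 bases before the RefSeq start site on GRCm38.p6, read 5′ to 3′ on the gene's strand. For Cybb and Sod2 this start lies inside the longer gene span that GENCODE gives. Capitals mark, for Cybb (chrX:9469325-9469574, minus strand) and Ncf1 (chr5:134229626-134229875, minus strand), matches on either strand to the 10-letter consensus of the interferon-stimulated response element, and for Sod2 (chr17:13007589-13007838, plus strand) a match to the NF-kappaB consensus.
Cybb: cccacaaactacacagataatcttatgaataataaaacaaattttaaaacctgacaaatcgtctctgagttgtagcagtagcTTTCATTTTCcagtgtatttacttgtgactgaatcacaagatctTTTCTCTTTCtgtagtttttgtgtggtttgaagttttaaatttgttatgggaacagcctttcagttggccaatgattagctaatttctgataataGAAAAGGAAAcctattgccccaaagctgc
Ncf1: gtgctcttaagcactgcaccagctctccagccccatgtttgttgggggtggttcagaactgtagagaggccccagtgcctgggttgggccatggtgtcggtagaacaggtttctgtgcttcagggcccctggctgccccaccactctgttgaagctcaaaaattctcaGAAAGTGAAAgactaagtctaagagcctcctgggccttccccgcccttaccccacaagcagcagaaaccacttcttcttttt
Sod2: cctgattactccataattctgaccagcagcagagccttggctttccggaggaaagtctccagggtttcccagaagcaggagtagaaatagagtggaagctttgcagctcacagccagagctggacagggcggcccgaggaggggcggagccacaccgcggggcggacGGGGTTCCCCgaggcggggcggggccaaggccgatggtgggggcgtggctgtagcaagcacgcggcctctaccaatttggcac
Cybb held 3 matches to the interferon-stimulated response element, beginning at -168, -124 and -29 from the start site, and Ncf1 held 1 at -82. Any such match was present in 2.98% of the 32851 promoter windows of this length. Sod2 held 1 match to the NF-kappaB consensus, at -83, and Cat and Gpx1 held 1 each at -116 and -55, against 7.25% of all windows. Sod2 and Sod1 each held 4 Sp1 boxes (GGGCGG), a motif found in 32.7% of windows. The table gave windows for 7 of the 9 genes, all except Ncf4 and Rac2, and a match describes letters only, not binding. No match to the PU.1 core GAGGAA was present in the Cybb, Ncf1 or Cyba window (23.3% of windows held one), which says nothing of the factor.

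All 9 genes were well expressed in vehicle cells. Levels are FPKM (fragments per kilobase of gene model, relative to a scale for each library), and each value rested on 1071 to 69882 recovered reads. That scale matched median-of-ratios size factors and not total reads. Vehicle means fell in this order: Gpx1 at 843 ± 27.7 FPKM, Cyba at 811 ± 5.01, Cybb at 327 ± 4.21, Rac2 at 124 ± 4.10, Cat at 95.95 ± 2.78, Ncf1 at 69.6 ± 0.590, Ncf4 at 62.6 ± 2.36, Sod1 at 26.7 ± 0.796 and Sod2 at 9.63 ± 0.487 FPKM (SD, n = 3 each). Neighbours in this order did not overlap between libraries, although the gap between the lowest Gpx1 library (818 FPKM) and the highest Cyba library (815 FPKM) was smaller than the SD of Gpx1. With nanoparticles the order by mean was Cyba, Gpx1, Cybb, Rac2, Sod2, Ncf4, Ncf1, Cat and Sod1. There the libraries of Cyba and Gpx1, of Gpx1 and Cybb, of Rac2 and Sod2 and of Ncf1 and Cat overlapped. Within each nanoparticle library Cyba still stood above Gpx1 and Rac2 above Sod2. The order of Gpx1 and Cybb, and that of Ncf1 and Cat, differed between libraries. Gpx1 stood above 99.6% of all tested genes and Sod2, the lowest, above 64.1%.

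The place of Sod1 in that order rests on its gene length. The deposited values use all annotated exon sequence, which for Sod1 is 3970 bases, while its principal transcript is 641 bases long. Per kilobase of principal transcript the vehicle mean of Sod1 was 166 FPKM, above Rac2 at 127, Cat at 95.95 and Ncf1 at 93.7 FPKM, and it moved from eighth to rank 4. For the other 8 genes the same change of length raised the level by 1.00 to 1.71 times. Changes between groups are not altered by the choice of length, apart from the effect of the added 1.

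With nanoparticles, 4 of the 9 genes rose, Sod2, Ncf4, Cybb and Ncf1, and 0 fell, by limma's moderated test on log2(FPKM + 1) at a Benjamini-Hochberg adjusted p under 0.05 over all tested genes. Among all tested genes 33.2% were called in either direction and 17.0% were called higher, so the count of 4 of 9 is to be read against those shares. At an unadjusted p under 0.05 there were 5 of the 9, these 4 and Cyba, all higher, where 44.4% of all tested genes were at that p and 22.4% were there and higher. Limma-voom on the recovered reads also called 0 of the 9 lower, against 16.7% of tested genes. The groups of 3 libraries did not overlap for 6 of the 9 genes, all 5 oxidase components and Sod2, against 52.1% of tested genes. The median log2 change of the 9 was 0.36, beside -0.0010 for all tested genes. In bulk RNA a change in the share of a cell type and a change per cell cannot be told apart.

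The rises are relative to the library scaling that the deposited values carry. With each library set to the same sum of FPKM the median gene stood at -0.38 on the log2 scale and with scaling by total reads at -0.28. Under both of these scalings Ncf4 and Sod2 rose, Cat fell, and Cybb and Ncf1 did not pass the threshold. Of all tested genes 8.25% were then called higher and 40.3% lower with the same sum of FPKM, and 10.4% and 33.8% with total reads.

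**Figure D1:**
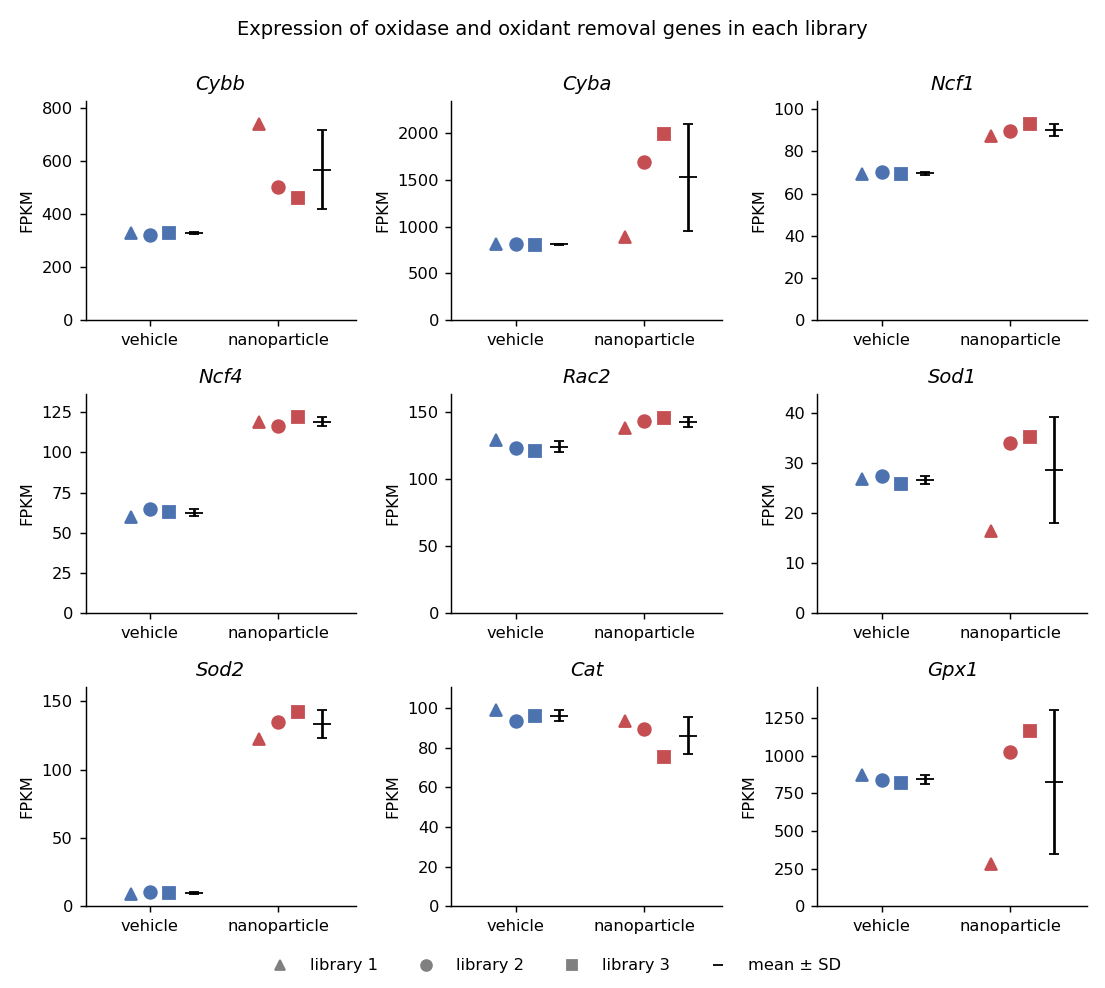
FPKM of the 9 genes in each vehicle (blue) and nanoparticle (red) library, with the mean and SD of each group in black and the library number given by the marker shape. Vehicle libraries lie close together, all 5 oxidase genes and Sod2 are higher in every nanoparticle library than in any vehicle library, and nanoparticle library 1 (triangle) stands apart for Cybb, Cyba, Sod1 and Gpx1.

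One library needs mention before the single genes. Nanoparticle library 1 correlated with nanoparticle libraries 2 and 3 at r = 0.942 and 0.928 across tested genes, while libraries 2 and 3 correlated at 0.9895 and the vehicle libraries at 0.993 to 0.994. For 3 of the 9 genes, Gpx1, Cyba and Sod1, it differed over 2-fold (FPKM + 1) from the average of libraries 2 and 3, as did 11.8% of tested genes. Values without it are given beside each of the 9 genes. Recovered totals were 17299293 to 21988908 reads per library.

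Among the membrane subunits, Cybb (chromosome X, 9435252 to 9487771, minus strand of GRCm38, as are all positions here) rose. It was at 330.0, 322 and 329 FPKM in vehicle libraries 1 to 3 and at 737, 503 and 461 FPKM in nanoparticle libraries 1 to 3. Every nanoparticle library was above every vehicle library, with library 1 the highest. The log2 change was 0.76 (SE 0.20, 95% interval 0.27 to 1.25, limma adjusted p = 0.0304), and 0.56 without nanoparticle library 1 (limma adjusted p = 2.3e-04). Leaving out any 1 vehicle library or nanoparticle library 2 took the adjusted p above 0.05, at 0.104, 0.113, 0.108 and 0.0611. With each library set to the same sum of FPKM the log2 change of Cybb was 0.29 (limma adjusted p = 0.368), and with scaling by total reads it was 0.42 (limma adjusted p = 0.155).

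Cyba (chromosome 8, 122424776 to 122432930, minus strand), the partner that stabilizes Cybb in the membrane, had values of 811, 815 and 805 FPKM in vehicle and 894, 1691 and 1993 FPKM in nanoparticle libraries 1 to 3. All nanoparticle libraries were higher, library 1 by little and libraries 2 and 3 by far. The fitted difference of 0.83 on the log2 scale (SE 0.31, 95% interval 0.079 to 1.59) did not pass the threshold (limma adjusted p = 0.0868), whereas without library 1 it was 1.18 (limma adjusted p = 3.6e-05). Cyba lies wholly within the span of the predicted gene Gm20388 on the opposite strand, and the strand setting of the counting is not given in the sources used here.

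The ratio of Cybb to Cyba within a library, which does not depend on scaling between libraries, was 0.407, 0.395 and 0.408 in vehicle and 0.824, 0.297 and 0.231 with nanoparticles. Nanoparticle library 1 lay above all vehicle libraries and libraries 2 and 3 lay below them. No difference between the groups was detected (exact permutation test, two-sided, p = 1.0, n = 3 per group, where 0.1 is the smallest p the design allows).

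**Figure D2:**
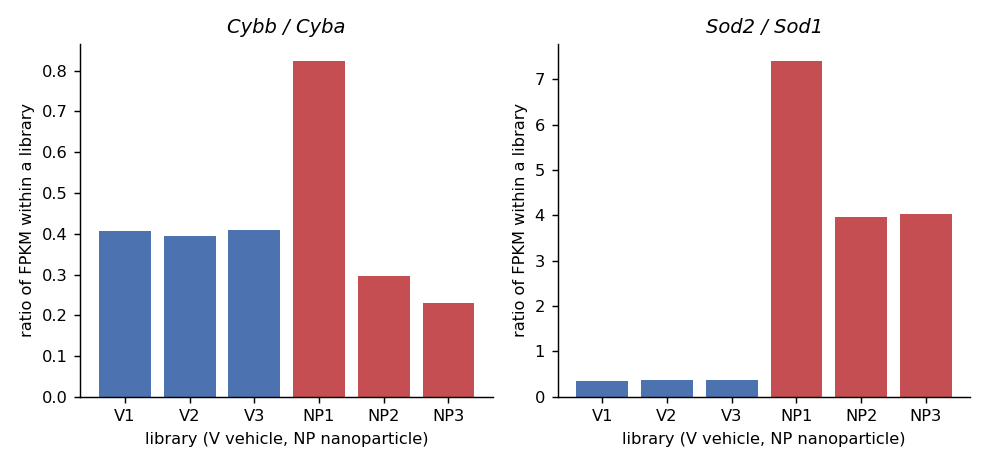
Ratio of FPKM values within each library for Cybb over Cyba (left) and Sod2 over Sod1 (right), with vehicle libraries V1 to V3 in blue and nanoparticle libraries NP1 to NP3 in red. The Cybb to Cyba ratio is about 0.40 in all vehicle libraries and splits with nanoparticles, from 0.231 to 0.824, while the Sod2 to Sod1 ratio is higher in all 3 nanoparticle libraries.

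The cytosolic subunits varied little between nanoparticle libraries, with coefficients of variation of 2.19% for Ncf4 and 3.06% for Ncf1. Ncf4 (chromosome 15, 78244801 to 78262580, plus strand) was at 60.1, 64.7 and 62.95 FPKM in vehicle and at 119, 117 and 122 FPKM with nanoparticles, with no overlap and with library 1 between the other nanoparticle libraries. It rose by 0.92 on the log2 scale (SE 0.10, 95% interval 0.68 to 1.16, limma adjusted p = 0.00105), and it passed the threshold in all 15 alternative settings. Without nanoparticle library 1 its log2 change was also 0.92 (limma adjusted p = 2.6e-05). Ncf1 (chromosome 5, 134220053 to 134229625, minus strand) was at 69.3, 70.3 and 69.2 FPKM in vehicle and at 87.3, 89.8 and 92.8 FPKM with nanoparticles. The groups did not overlap, and the rise was the smallest of those called, 0.36 on the log2 scale (SE 0.10, 95% interval 0.13 to 0.60, limma adjusted p = 0.03). That call is tied to the scaling of the deposited values: with each library set to the same sum of FPKM the log2 change of Ncf1 was -0.10 (limma adjusted p = 0.429), and with scaling by total reads 0.02 (limma adjusted p = 0.85). It was also lost without any 1 of vehicle libraries 1 to 3 or nanoparticle libraries 2 and 3 (limma adjusted p = 0.0676 to 0.14), while without nanoparticle library 1 the log2 change was 0.39 (limma adjusted p = 5.4e-04). Ncf1 shares 4303 bases of its span with Gtf2ird2 on the other strand, which averaged 1.3 FPKM.

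Rac2 (chromosome 15, 78559167 to 78572783, minus strand) was at 129, 123 and 121 FPKM in vehicle and at 138, 143 and 145 FPKM with nanoparticles. The groups did not overlap, but the difference of 0.19 on the log2 scale (SE 0.10, 95% interval -0.06 to 0.45) did not pass the threshold (limma adjusted p = 0.204), and it was 0.22 without nanoparticle library 1 (limma adjusted p = 0.0098). Its direction turned with each library set to the same sum of FPKM (log2 change -0.27) and with scaling by total reads (-0.15). The 5 oxidase genes summed to 1394 ± 6.47 FPKM in vehicle (SD, n = 3) against a nanoparticle mean of 2444 ± 428 FPKM (SD, n = 3). That sum was 1975, 2543 and 2814 FPKM in nanoparticle libraries 1 to 3, and Cyba made up most of the sum in libraries 2 and 3.

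Sod2 (chromosome 17, 13006846 to 13040063, plus strand) had the largest change of the 9 genes. It was at 9.20, 10.2 and 9.53 FPKM in vehicle libraries 1 to 3 and at 122, 135 and 142 FPKM in nanoparticle libraries 1 to 3. All 3 nanoparticle libraries were high and the groups were far apart. The log2 change was 3.66 (SE 0.11, 95% interval 3.40 to 3.91, limma adjusted p = 2.0e-05), a 12.6-fold rise on the FPKM + 1 scale, and it ranged from 3.61 to 3.72 when each library was left out in turn, with 3.72 without nanoparticle library 1 (limma adjusted p = 2.6e-07). Sod2 went from the lowest of the 9 genes in vehicle to above Ncf4 (119 FPKM), Ncf1 (89.9 FPKM) and Cat (86.0 FPKM) with a nanoparticle mean of 133 ± 10.0 FPKM (SD, n = 3).

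Sod1 (chromosome 16, 90220754 to 90226329, plus strand), the cytosolic dismutase, did not pass the threshold. Its values were 26.9, 27.5 and 25.9 FPKM in vehicle and 16.5, 34.1 and 35.4 FPKM with nanoparticles, so nanoparticle library 1 was the lowest of the 6 and libraries 2 and 3 the highest. The log2 change was 0.02 (SE 0.29, 95% interval -0.67 to 0.72, limma adjusted p = 0.958), and without library 1 it was 0.37 (limma adjusted p = 0.0013). It turned to -0.43 with each library set to the same sum of FPKM and to -0.31 with scaling by total reads, without passing the threshold in either. Sod1 shares 650 bases of its span with Scaf4 on the other strand, which averaged 6.78 FPKM.

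The Sod2 to Sod1 ratio was 0.343, 0.370 and 0.368 in vehicle and 7.41, 3.96 and 4.02 with nanoparticles. The ratio was higher in 3 of 3 nanoparticle libraries, by 13.6-fold between geometric means (log2 difference 3.77, exact permutation test, two-sided, p = 0.1, n = 3 per group, the smallest p this design allows, Benjamini-Hochberg adjusted p = 0.2 over the 2 ratios). The highest ratio, in library 1, came with the lowest Sod1. Since Sod1 levels are understated by its gene length, the level of this ratio is not one of molecules, but its change is unaffected.

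Neither peroxide-removing enzyme passed the threshold with all libraries included. Cat (chromosome 2, 103453849 to 103485160, minus strand) was at 98.8, 93.2 and 95.8 FPKM in vehicle and at 93.3, 89.4 and 75.5 FPKM with nanoparticles. The groups overlapped narrowly, at 93.2 and 93.3 FPKM, and library 3 was the lowest. Its log2 change was -0.16 (SE 0.12, 95% interval -0.46 to 0.13, limma adjusted p = 0.36). It was -0.22 without nanoparticle library 1 (limma adjusted p = 0.046), -0.63 with each library set to the same sum of FPKM (limma adjusted p = 0.0193) and -0.50 with scaling by total reads (limma adjusted p = 0.0209), so Cat fell under these 3 settings.

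Gpx1 (chromosome 9, 108338903 to 108340343, plus strand) had the widest nanoparticle spread, a coefficient of variation of 57.8% against 3.28% in vehicle. It was at 872, 839 and 818 FPKM in vehicle and at 280.0, 1026 and 1167 FPKM in nanoparticle libraries 1 to 3. Library 1 was the lowest of the 6 libraries by far and libraries 2 and 3 were the highest. The log2 change was -0.28 (SE 0.54, 95% interval -1.58 to 1.02, limma adjusted p = 0.73) with library 1 and 0.38 (95% interval 0.21 to 0.55, limma adjusted p = 0.0036) without it. Gpx1 in library 1 was 0.255 times the mean of libraries 2 and 3, a departure lower than that of all but 0.562% of tested genes.

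Without nanoparticle library 1 all 9 genes passed the threshold, 8 higher and Cat lower, where 64.8% of all tested genes passed in either direction, 34.3% of all tested genes higher and 30.5% lower. The median log2 change of the 9 was then 0.39, beside 0.02 for all tested genes. The sign of Gpx1 turned, Cyba, Rac2 and Sod1 became called as higher, and Sod2, Ncf4 and Ncf1 moved little.

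**Figure D3:**
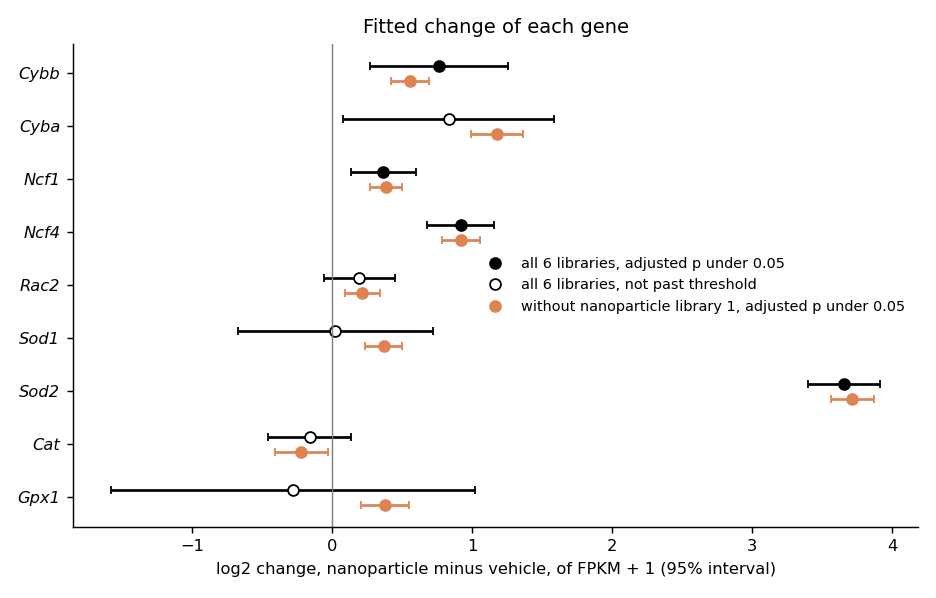
Fitted log2 change (nanoparticle minus vehicle, FPKM + 1) of each gene with its 95% interval, from all 6 libraries (black) and without nanoparticle library 1 (orange), where filled points have an adjusted p under 0.05. Sod2 is at 3.66 and 3.72, Ncf4 at 0.92 in both fits, and Gpx1 changes sign from -0.28 to 0.38.

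Over tested genes with an annotated principal transcript, the departure of nanoparticle library 1 went with transcript length. Several of the 9 genes followed this while Sod2 and Ncf4 did not. On the log2(FPKM + 1) scale library 1 stood at -1.97 against the mean of libraries 2 and 3 for Gpx1, -1.04 for Cyba and -1.03 for Sod1, whose principal transcripts have 1072, 744 and 641 bases. It stood at 0.61 for Cybb, with 4752 bases, at 0.18 for Cat, with 2613, and at -0.06 for both Ncf1, with 2721, and Rac2, with 3038. Sod2 has the longest principal transcript of the 9, with 5861 bases, and stood at -0.18, and Ncf4, with 1464 bases, stood at -0.0039. Length classes were made of the 9727 tested genes with an annotated principal transcript. The median departure was -0.76 for the 643 genes of up to 1000 bases and -0.35 for 2163 genes of up to 2000 bases. It was -0.02 for 3984 genes of up to 4000 bases and 0.30 for 2937 longer genes. Sod1 and Cyba lay between the lower quartile (-1.16) and the median of the shortest class, while Gpx1 lay below the lower quartile of its class (-0.67). Ncf4 lay above the median of that same class and Sod2 below the median of the longest class.

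Length also went with the change between groups in the other nanoparticle libraries. Without library 1 the median log2 change, over tested genes with a principal transcript, was 0.53 in the shortest class. It was 0.28 and -0.0015 in the next classes and -0.28 in the longest. Against these, Sod1 (0.37) was below and Cyba (1.18) above the median of the shortest class, Gpx1 (0.38) and Ncf4 (0.92) were above that of 1000 to 2000 bases, Ncf1 (0.39) and Rac2 (0.22) were above and Cat (-0.22) below that of 2000 to 4000 bases, and Cybb (0.56) and Sod2 (3.72) were above that of the longest. The part of transcript length in these changes, and in those of the related lists below, was not tested.

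**Figure D4:**
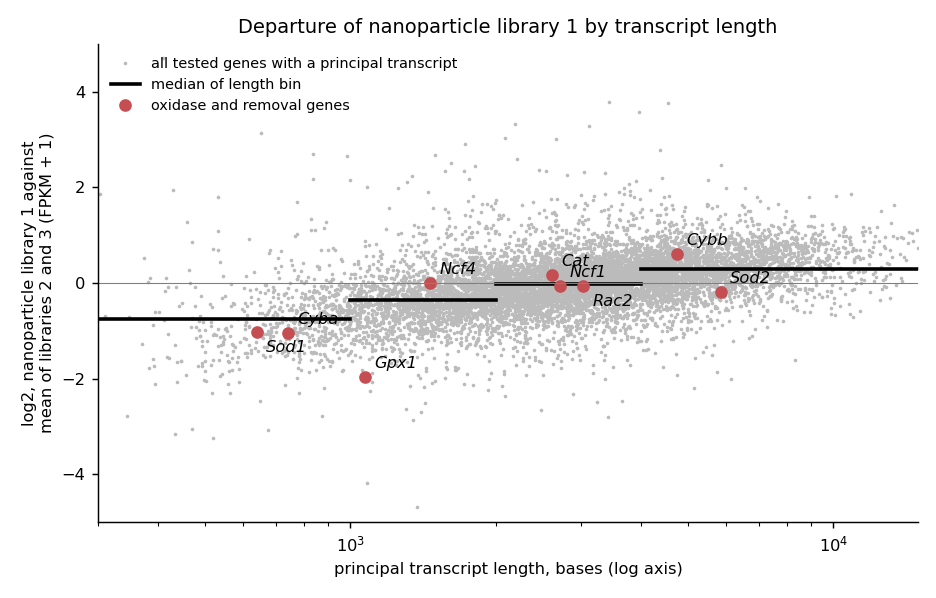
Log2 of nanoparticle library 1 against the mean of libraries 2 and 3 (FPKM + 1) plotted against principal transcript length on a log axis. Grey points are tested genes with a principal transcript (27 of 9727 lie outside the axes). The 9 genes are in red and the median of each length class is a black line. The medians run from -0.76 in the shortest class to 0.30 in the longest, and Gpx1, Cyba and Sod1 lie below -1.

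Other proteins that the phagocyte oxidase needs were examined as a list of 8, all tested. Of these 3 rose and 0 fell (median log2 change 0.27), where 17.0% of all tested genes were called higher and 16.2% lower. With each library set to the same sum of FPKM 2 were higher (Rap1b, Hvcn1) and 3 lower, under a scaling that called 8.25% of all tested genes higher and 40.3% lower. Rap1b, a small GTPase of the Rap family, rose from 111 ± 2.28 to 203 ± 12.4 FPKM (SD, n = 3 each, limma adjusted p = 0.00197). Cybc1, the chaperone needed for making the flavocytochrome, rose from 13.4 ± 1.02 to 24.9 ± 2.81 FPKM (limma adjusted p = 0.00282). Hvcn1, the voltage-gated proton channel that balances the charge moved by the oxidase, rose from 59.3 ± 0.684 to 126 ± 29.8 FPKM (limma adjusted p = 0.00777). Rac1, the other Rac GTPase of these cells, had a log2 change of -0.13 (limma adjusted p = 0.523). Without nanoparticle library 1, 7 of the 8 were called higher, against 34.3% of tested genes.

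Among 16 kinases, exchange factors and related genes upstream of the oxidase, all tested, 3 rose and 8 fell, against 17.0% and 16.2% of all tested genes, with a median log2 change of -0.45. With each library set to the same sum of FPKM 0 were higher and 12 lower, where 8.25% and 40.3% of all tested genes were. Dock2, an exchange factor for Rac in blood cells, fell from 27.0 ± 1.00 to 12.2 ± 0.739 FPKM (SD, n = 3 each, limma adjusted p = 4.96e-04). Vav2 had a log2 change of -0.90 (limma adjusted p = 9.0e-04), Pik3cd, a catalytic subunit of phosphoinositide kinase, of -1.10 (limma adjusted p = 0.00108), and Prkcb, a protein kinase C, of -1.08 (limma adjusted p = 0.00231). The others that fell were Pik3cg, Pak1, Pak2 and Mapk14. Those that rose were Syk, the tyrosine kinase of ITAM-bearing receptors, Vav1 and the phospholipase Pla2g4a. Prkcd, a kinase that phosphorylates Ncf1, had a log2 change of -0.08 (limma adjusted p = 0.795). Without nanoparticle library 1 it was called higher, at 0.14 (limma adjusted p = 0.0302). With each library set to the same sum of FPKM it was instead among the 12 called lower.

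Of 11 other oxidant-producing enzymes and their partners only Xdh (xanthine dehydrogenase) was expressed enough to be tested. It was at 6.24, 5.68 and 6.22 FPKM in vehicle and at 9.22, 3.07 and 3.34 FPKM with nanoparticles, high in library 1 and low in libraries 2 and 3 (log2 change -0.32, limma adjusted p = 0.535). Without library 1 it was called lower, at -0.74 (limma adjusted p = 2.6e-04). Nox1, Noxo1, Noxa1, Duox2, Duoxa1 and Aox1 stayed under 1 FPKM in every library, and Nox3, Nox4, Duox1 and Duoxa2 were not analysed here. Cybb was thus the one NOX catalytic subunit above 1 FPKM among those analysed.

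Further enzymes of superoxide and peroxide removal made a list of 23, of which 17 were tested, 7 rose and 0 fell (median log2 change 0.62). Among all tested genes 17.0% were called higher and 16.2% lower. With each library set to the same sum of FPKM 4 were higher and 3 lower (Ccs, Prdx3 and Txn2). That scaling called 8.25% of all tested genes higher and 40.3% lower. Prdx5, a peroxiredoxin of mitochondria, peroxisomes and cytosol, had the largest change of the list, a rise of 2.28 on the log2 scale from a vehicle level of 126 ± 2.59 FPKM to 622 ± 115 FPKM (SD, n = 3 each, limma adjusted p = 2.6e-04). Txnrd1 (thioredoxin reductase), Srxn1 (sulfiredoxin, which restores overoxidized peroxiredoxins) and Txn1 (thioredoxin) had log2 changes of 0.99, 0.92 and 1.30 (limma adjusted p = 8.2e-04, 0.0022 and 0.00445). Gpx4, Prdx6 and Glrx also rose. Prdx1, the most abundant of the list, was at 1824, 1779 and 1713 FPKM in vehicle and at 2066, 4592 and 5152 FPKM with nanoparticles, and missed the threshold (limma adjusted p = 0.0722), with library 1 again the lowest of its group. Without that library Prdx1 was called higher, at 1.46 on the log2 scale against 1.05 with it (limma adjusted p = 1.0e-05). Prdx3, the mitochondrial peroxiredoxin, had a log2 change of -0.29 (limma adjusted p = 0.455) and Ccs, the copper chaperone of Sod1, of -0.10 (limma adjusted p = 0.733). Sod3, Gpx7 and Gpx8 stayed under 1 FPKM in every library, and Gpx2, Gpx5 and Gpx6 were not analysed here.

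Of 12 transcription factors known to act on oxidase genes or Sod2, 9 were tested, 7 rose and 0 fell (median log2 change 1.19). Of all tested genes 17.0% were called higher and 16.2% lower. With each library set to the same sum of FPKM 6 factors were higher and 1 lower (Sp1). That scaling called 8.25% of all tested genes higher and 40.3% lower. Irf1 rose from 5.58 ± 0.0736 to 35.4 ± 2.75 FPKM (SD, n = 3 each, limma adjusted p = 3.9e-05). Nfkb1 and Irf8 had log2 changes of 1.65 and 1.19 (limma adjusted p = 8.0e-04 and 8.1e-04), and Rela, Cebpb and Nfe2l2 rose as well. Spi1, which encodes PU.1, had a log2 change of 0.12 (limma adjusted p = 0.798). Its level was 158 to 161 FPKM in the vehicle group, and nanoparticle libraries 1, 2 and 3 had 107, 217 and 226 FPKM. Without library 1 Spi1 was called higher, at 0.46 (limma adjusted p = 2.5e-04). Cebpe, Hoxa9 and Hoxa10 were too low to test. The part of any factor in the changes of the 9 genes was not tested.

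**Figure D5:**
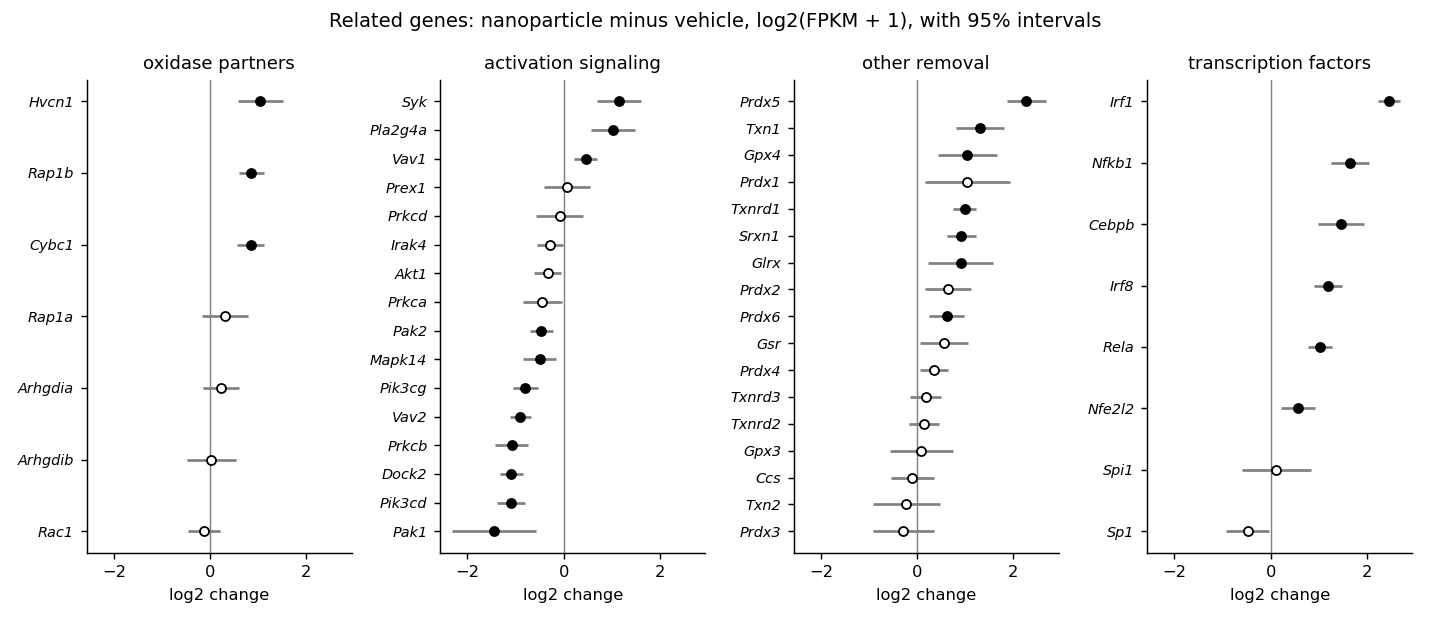
Log2 change (nanoparticle minus vehicle, FPKM + 1) with 95% intervals for genes of 4 related lists, where filled points have an adjusted p under 0.05. Called among the genes drawn are 3 of 7 oxidase partners, all higher, 11 of 16 signaling genes, 8 of them lower, and 7 of 17 removal genes and 6 of 8 transcription factors, all higher. Of all tested genes 17.0% were called higher and 16.2% lower.

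Genes whose levels ran most like those of Sod2 over the 6 libraries were Surf4 (r = 0.9997), Slc3a2 (r = 0.9996) and Cxcl10 (r = 0.9993) on the log2(FPKM + 1) scale, the highest among 3940 genes with a mean of at least 10 FPKM. Surf4, a cargo receptor of the endoplasmic reticulum, went from 73.8 ± 0.213 to 125 ± 1.498 FPKM, Slc3a2, the heavy chain of amino acid transporters, from 79.9 ± 1.62 to 263 ± 13.8 FPKM, and the chemokine Cxcl10 from 0.531 ± 0.222 to 124 ± 6.06 FPKM (SD, n = 3 each). These points share the group difference, and 198 genes had r over 0.99.

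Marker genes bear on which cells the 9 genes were read from. Of 9 dendritic cell markers 8 were above the filter, with Cd74, H2-Aa and Itgax abundant, and Flt3 stayed under 1 FPKM in every library. Irf8 rose, and Zbtb46, Cd209a, Clec10a and Ciita fell. The 9 markers summed to 5141 to 5529 FPKM in vehicle and to 2907 to 6573 FPKM with nanoparticles. The 8 macrophage markers were all tested, 4 rose (Adgre1, Cd68, Fcgr1, Cd14) and 2 fell, Mrc1 among them, and they summed to 721 to 737 FPKM in vehicle and 1305 to 1760 FPKM with nanoparticles, so the cultures also carried macrophage transcripts. Neutrophils are rich in the oxidase, and 11 of their markers summed to 35.8 to 40.3 FPKM in vehicle and 55.95 to 128 FPKM with nanoparticles, mostly S100a8, while Ly6g, Elane, Mpo, Ltf, Retnlg and Cxcr2 stayed under 1 FPKM in every library. Erythroid cells are rich in Cat and Gpx1, and 3 of their 7 markers, the ones analysed here, summed to at most 0.488 FPKM. The 4 B cell and 4 T cell markers each summed to at most 0.538 FPKM, and 6 mast cell and basophil markers to 2.69 to 4.90 FPKM in vehicle and 9.63 to 25.02 FPKM with nanoparticles, there mostly Hdc. The part of macrophage or neutrophil transcripts in the changes of the oxidase genes was not tested.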

How the data were processed

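RNA of bone marrow derived dendritic cells was sequenced as 6 NEBNext Ultra II libraries (3 vehicle, 3 nanoparticle), per the labels' protocols. The submitters' processing notes name CASAVA, STAR 2.5, HTSeq, edgeR 3.16.5 and DESeq2 with the builds mm10 and hg19, without roles. The authors deposited 2 tables whose 140388 values are identical, in FPKM, a unit inferred from the values. Multiplied by GENCODE M21 exon length, 95.8% to 96.1% of values above 0 per library became whole reads (within 0.01), and totals were 17299293 to 21988908 reads. The recovered library scales matched median-of-ratios size factors to within 0.0167%.

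Genes at 1 FPKM or more in at least 3 libraries (10682) were fitted with limma 3.58.1 in R 4.3.3 on log2(FPKM + 1), with group as the single term and a mean-variance trend. The threshold was a Benjamini-Hochberg adjusted p of 0.05 over all tested genes. The fit was also run on simulated reads with the same dispersion for every gene and no departing library. That run therefore cannot tell how the fit behaves with a library like nanoparticle library 1. Fold changes of low genes are understated on this scale. The design had named edgeR only for raw counts, so it was not used. Ratios were tested with exact permutation in scipy 1.17.1 under Python 3.11.15. The 15 alternatives vary scaling, pseudocount, filter, trend, test, replicate block and libraries left out. No 2 libraries of a group were duplicates, with a chi-square per degree of freedom of at least 2.87. Members and lists, and the motifs searched, were chosen with earlier results of these data known. Named genes are the 9 members, up to 4 called genes per list with the smallest adjusted p, list genes not tested, and the 3 genes most like the member with the largest rise. Rac1, Prkcd, Prdx1, Prdx3, Ccs, Spi1 and the remaining called list genes were named after their values were seen. Some list genes are counted but not reported here by name. Positions are those of GRCm38.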

Additional observations from a re-analysis of the deposited data

How the results depend on the processing

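Sod2 and Ncf4 kept their direction and their call in all 15 alternatives, and Cyba and Gpx1 stayed uncalled in all except the fit without nanoparticle library 1. Over fits leaving out 1 library each, genes called ran from 2141 to 6923 (1114 to 3660 higher, 1027 to 3263 lower), members called from 2 to 9, oxidase partners from 3 to 7, signaling genes from 7 to 14, removal genes from 4 to 11 and transcription factors from 6 to 9. Log2 changes ran from 0.56 to 0.90 for Cybb, 0.60 to 1.18 for Cyba, 0.34 to 0.39 for Ncf1, 0.89 to 0.94 for Ncf4, 0.17 to 0.22 for Rac2, -0.16 to 0.37 for Sod1, 3.61 to 3.72 for Sod2, -0.22 to -0.070 for Cat and -0.65 to 0.38 for Gpx1, and the log2 difference of the Cybb to Cyba ratio from -0.62 to 0.30. Without nanoparticle libraries 2 and 3 in turn, Sod1 was at -0.14 and -0.16 and that ratio at 0.11 and 0.30. Without library 1 Gpx1 was at 0.38.

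With each library set to the same sum of FPKM, 881 genes were called higher and 4306 lower, with 5 oxidase partners, and the log2 changes were 0.29 for Cybb, -0.10 for Ncf1, -0.27 for Rac2, -0.43 for Sod1 and -0.63 for Cat. With scaling by total reads, 1109 were higher and 3610 lower, with 4 removal genes, and the log2 changes were 0.42 for Cybb, 0.024 for Ncf1, -0.15 for Rac2, -0.31 for Sod1 and -0.50 for Cat. By construction these scalings shift every gene, and the median gene stood at -0.38 and -0.28. The summed oxidase level then changed by 0.33 and 0.46 on the log2 scale in place of 0.81. A filter at 5 FPKM left 975 genes lower, from fewer genes tested. Without a filter Cybb kept its log2 change of 0.76 but not its call (limma adjusted p = 0.0783). With the replicate block 2 of the 9 members and 26.1% of all tested genes were called, and Cybb at 0.76 and Ncf1 at 0.36 lost their calls (limma adjusted p = 0.0629 and 0.126). The labels do not say whether same-numbered libraries share more than a number. Their deviations correlated at 0.065, 0.11 and -0.058. These values cannot decide it, since the departure of nanoparticle library 1 weighs heavily on the nanoparticle deviations. Members had at least 1071 reads in every library, and with 3 libraries a group the ratios could not reach a p below 0.1.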
